A study of Mus musculus with 4 samples.

Results

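Wnt and Notch are short-range signalling pathways, and 67 probe sets for 52 of their genes were read in ventricular tissue of mice that overexpress serum response factor (SRF). The arrays held 12422 probe sets that are not controls, of which 10833 named a single gene (8251 genes). The members are all probe sets whose annotation names exactly 1 gene and whose symbol belongs to the Wnt, Fzd, Sfrp, Dkk, Dvl, Axin, Notch, Jag, Dll, Hes or Hey families or is Frzb, Lrp5, Lrp6, Lef1, Tcf7, Tcf7l1, Tcf7l2 or Rbpj. That rule reads gene names only. The transgenic group was 2 ventricle samples from mice that carried a moderate SRF overexpression limited to the heart, at 6 months of age, and the other group was 2 ventricle samples from non-transgenic mice of that age. Each sample was hybridised to 1 Affymetrix oligonucleotide array. SRF is a transcription factor that binds the CArG box of muscle, cytoskeletal and immediate early genes. The question was which transcripts differ when it is overexpressed. The sources used here give neither the promoter of the transgene nor the strain or the number of animals per sample, so p-values reflect only how much these samples vary, and that variation may be technical. Srf itself is not analysed here.

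In the Wnt pathway, secreted Wnt proteins bind Frizzled receptors and the co-receptors Lrp5 and Lrp6, which act through Dishevelled to spare beta-catenin from breakdown by the Axin complex, so that it can join Tcf and Lef factors on DNA. Secreted proteins of the Sfrp, Frzb and Dkk families bind Wnts or their receptors and mostly restrain the pathway. In the Notch pathway, ligands of the Jagged and Delta-like families on one cell cause the Notch receptor of a neighbouring cell to be cut, and the freed intracellular part joins Rbpj to switch on repressors of the Hes and Hey families. Both pathways shape the heart during development and are known to be used again in the injured or overloaded adult heart, among other cells in fibroblasts and vessels.

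Array medians were 49.0 and 50.6 on the transgenic arrays and 53.9 and 52.3 on the non-transgenic arrays. Markers of ventricular cardiomyocytes were bright on every array, with signals from 974 for Ryr2 to 13266 for Tnni3. Of 8 such probe sets 5 fell and 0 rose, and the other 3 missed the threshold. Hepatocyte markers stand for a tissue other than heart. They summed to 264 and 284 on the transgenic arrays and to 2416 and 4594 on the non-transgenic arrays. Of 8 tested hepatocyte probe sets 6 were lower, 0 were higher and 2 did not pass. The part of this difference in the members that were lower in transgenic ventricle was not tested. The log2 changes below are transgenic minus non-transgenic values of log2(signal + 9), and adjusted p values are those of limma, a linear model with shared variance estimates, after Benjamini-Hochberg adjustment.

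Among the members, the Wnt receptor Fzd2 and the secreted Wnt antagonist Frzb were higher in transgenic ventricle, and the Notch ligand Jag2 was lower. Fzd2 rose 3.60-fold, Frzb rose 2.87-fold and Jag2 was 2.0-fold lower. These were the 3 of 37 tested probe sets that passed limma with Benjamini-Hochberg adjustment over all probe sets, with 2 higher, 1 lower and 34 not past the test. The share called was 8.11% of the tested members, close to the 7.93% called among all 7453 tested probe sets, so the count is not a result about these pathways as a group. In each direction, 4.07% of all tested probe sets were higher and 3.86% lower. At an unadjusted limma p below 0.05 there were 8 members (21.6%), beside 24.2% of all tested probe sets. The median log2 change was 0.07 over the tested members and -0.01 over all tested probe sets.

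The other 30 member probe sets were dim, that is among the lowest 40% of the array by mean signal, and 19 of the 52 genes had only dim probe sets. The transgenic arrays lay wholly above the non-transgenic arrays in 13 of the 37 tested members (35.1%, beside 27.8% of all tested probe sets) and wholly below in 4 (10.8%, beside 28.1%).

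**Figure D1:**
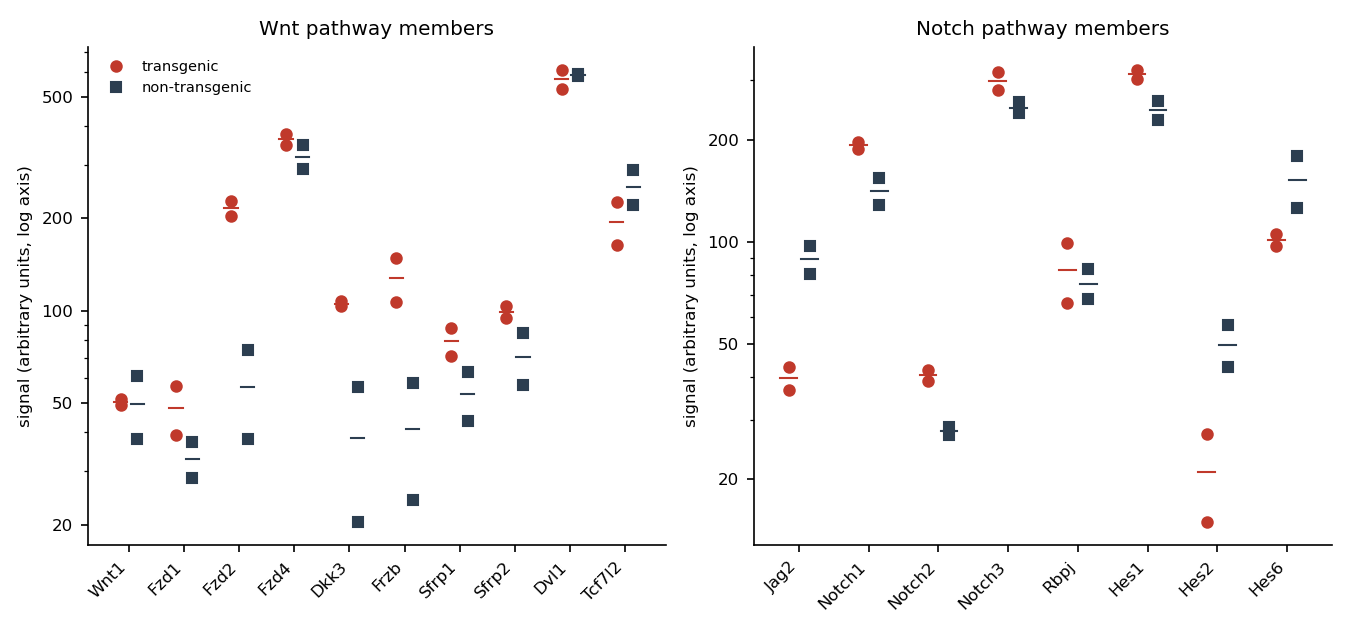
Signal on each array (log axis, arbitrary units) for the 18 member probe sets given with full statistics, with transgenic arrays as circles, non-transgenic arrays as squares and a line at each group mean. Fzd2, Dkk3 and Frzb lie higher on both transgenic arrays than on both non-transgenic arrays, and Jag2, Hes2 and Hes6 lie lower.

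The RefSeq promoter windows, of 250 bases before and 50 after the transcription start in build GRCm38.p6, are shown for Frzb and Jag2 because both genes passed the test and both were in the table of windows. Windows were found for 34 of the 52 member genes. Capitals mark the matches found to 4 patterns read on both strands: the CArG box bound by SRF, TGGGAA (the core read by Rbpj), CTTTGA (the core read by Tcf and Lef factors) and CACNAG (the N-box read by Hes factors). No match overlapped another in these windows. The Frzb window is chr2:80447347-80447646, minus strand, and the Jag2 window is chr12:112929446-112929745, minus strand.
Frzb: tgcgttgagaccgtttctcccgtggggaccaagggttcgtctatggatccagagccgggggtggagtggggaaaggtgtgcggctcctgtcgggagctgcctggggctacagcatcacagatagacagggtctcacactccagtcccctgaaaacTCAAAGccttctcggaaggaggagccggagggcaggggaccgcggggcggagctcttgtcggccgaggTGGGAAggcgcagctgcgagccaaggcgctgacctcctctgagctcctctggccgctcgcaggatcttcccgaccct
Jag2: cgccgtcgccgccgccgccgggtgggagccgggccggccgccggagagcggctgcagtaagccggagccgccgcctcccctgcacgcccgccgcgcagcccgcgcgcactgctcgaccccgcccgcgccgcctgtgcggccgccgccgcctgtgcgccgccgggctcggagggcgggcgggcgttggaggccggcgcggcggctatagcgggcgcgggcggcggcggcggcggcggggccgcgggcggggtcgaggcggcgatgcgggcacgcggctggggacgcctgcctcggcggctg
The Frzb window held 1 match to TGGGAA, which starts 27 bases before the transcription start, and 1 match to CTTTGA on the opposite strand, written as TCAAAG. The Jag2 window, with 86% G and C, held no match to any of the 4 patterns, and neither window held a CArG box. Among all 32851 windows 25.6% held TGGGAA, 16% held CTTTGA, 42.5% held CACNAG and 1.63% held a CArG box. Over the 44 windows of member genes the counts were 11, 6, 12 and 2. The member genes with a CArG box in the window were Hes5, which was dim, and Lef1, which did not pass the test. A match describes the letters and does not show binding.

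Wnt ligands were read by 16 probe sets for 14 genes, of which 13 were dim. The tested ones were Wnt1, Wnt3 and Wnt10a, and none passed the test. Wnt1 signal was 51.3 and 49.0 on the transgenic arrays, against 38.0 and 61.2 on the non-transgenic arrays. The transgenic arrays thus lay inside the span of the non-transgenic ones, with a log2 change of 0.04 ± 0.26 (SE) and an adjusted p of 0.946 in limma. Wnt10a read 25.7 and 37.8 in transgenic ventricle and 39.7 and 42.9 in non-transgenic ventricle, without overlap (log2 change -0.32, adjusted p = 0.507 in limma). Wnt3 read 30.8 and 35.6 in transgenic ventricle and 28.1 and 36.9 in non-transgenic ventricle. Dim ligands included Wnt5a, known for signalling that does not use beta-catenin, at 13.4 and 3.0 on the transgenic arrays and 5.5 and 26.4 on the non-transgenic arrays. The 2 arrays of each group differed severalfold, so no direction can be read. Wnt11, another ligand of that kind, read 10.5 and 6.8 on the transgenic arrays and 7.3 and 9.1 on the non-transgenic arrays.

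Receptors were read by 14 probe sets for 10 genes, of which 9 probe sets were tested. Fzd2 rose and the other 8 did not pass the test. Fzd2 is a Frizzled receptor used by Wnt5a among other ligands. Its signal was 228.6 and 204.0 on the transgenic arrays, against 38.0 and 74.3 on the non-transgenic arrays. Both transgenic arrays lay far above both non-transgenic arrays, and the non-transgenic pair was the more spread in proportion. The means were 216 ± 17.4 in transgenic and 56.2 ± 25.7 in non-transgenic ventricle (SD, n = 2 each), with a log2 change of 1.85 ± 0.27 (SE) and an adjusted p of 0.0117 in limma. The adjusted p stayed between 0.00280 and 0.0233 in limma when single arrays were left out, and was 0.0657 when the variance model had no trend.

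Fzd4, a receptor of vascular endothelium, read 377.3 and 347.5 in transgenic ventricle and 346.5 and 289.9 in non-transgenic ventricle, with a log2 change of 0.19 ± 0.13 (SE; 95% interval -0.13 to 0.50, adjusted p = 0.438 in limma). Fzd1 read 56.9 and 39.1 in transgenic ventricle and 28.4 and 37.2 in non-transgenic ventricle (log2 change 0.44 ± 0.27 SE, adjusted p = 0.371 in limma). The groups did not overlap in either gene, but the lower transgenic array lay close to the higher non-transgenic one. The log2 changes of the tested probe sets of Fzd3, Fzd7, Fzd8, Fzd9 and Lrp5 lay between -0.11 and 0.07. A second, dim Fzd3 probe set was lower, at 12.8 and 7.9 in transgenic ventricle against 28.4 and 13.8 in non-transgenic ventricle. Lrp6, a co-receptor that pairs with Frizzled, read 251.8 and 156.6 in transgenic ventricle against 161.0 and 94.3 in non-transgenic ventricle. Its groups overlapped (log2 change 0.65 ± 0.29 SE, adjusted p = 0.230 in limma). A second, dim Lrp6 probe set read 16.7 and 2.6 in transgenic ventricle, against 2.5 and 2.3 in non-transgenic ventricle.

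Secreted inhibitors gave the largest median change of the member roles with over 1 tested probe set, at 0.95 on the log2 scale. Of 7 genes, 4 were tested, 1 rose and 3 did not pass. In each of the 4, both transgenic arrays exceeded both non-transgenic arrays, which held for 27.8% of all tested probe sets. Frzb, also known as Sfrp3, binds Wnt proteins outside the cell. Its signal was 148.1 and 107.0 on the transgenic arrays, against 58.0 and 24.1 on the non-transgenic arrays. The means were 128 ± 29.1 in transgenic and 41.0 ± 24 in non-transgenic ventricle (SD, n = 2 each), with a log2 change of 1.52 ± 0.35 (SE) and an adjusted p of 0.0436 in limma. The call ended without transgenic replicate 1 (adjusted p = 0.138 in limma) and without non-transgenic replicate 2 (0.0715), and also with a pseudocount of 1 (0.0502), without the filter on dim probe sets (0.109) and without a trend in the variance model (0.121).

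Dkk3, a divergent Dickkopf protein whose effect on Wnt signalling depends on the cell, read 107.1 and 103.5 in transgenic ventricle, against 20.4 and 56.2 in non-transgenic ventricle. The transgenic arrays were nearly equal, and the spread came from the non-transgenic pair. The log2 change was 1.38 ± 0.36 (SE), with an adjusted p of 0.0667 in limma. Dkk3 passed in limma with a pseudocount of 50 (adjusted p = 0.0454) and with a replicate block (0.0213). It did not pass in the other settings that kept every array and tested it. Leaving out non-transgenic replicate 2 brought it past the threshold (0.00946 in limma), and with any other array left out the adjusted p was 0.0791 to 0.148. Without non-transgenic replicate 1 the log2 change was 0.81. Sfrp1 read 88.0 and 71.1 in transgenic ventricle, against 43.6 and 62.9 in non-transgenic ventricle. Sfrp2 read 103.7 and 94.3 in transgenic ventricle, against 84.3 and 57.0 in non-transgenic ventricle. The log2 change of Sfrp1 was 0.52 ± 0.23 (SE; 95% interval -0.03 to 1.07, adjusted p = 0.230 in limma). That of Sfrp2 was 0.46 ± 0.22 (SE; 95% interval -0.06 to 0.98, adjusted p = 0.252 in limma). Dkk1, Dkk2 and Sfrp4 were dim on the arrays. Dkk2 read 8.8 and 20.4 in transgenic ventricle and 1.9 and 3.0 in non-transgenic ventricle, at a level where the filter on dim probe sets excluded it from the test.

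**Figure D2:**
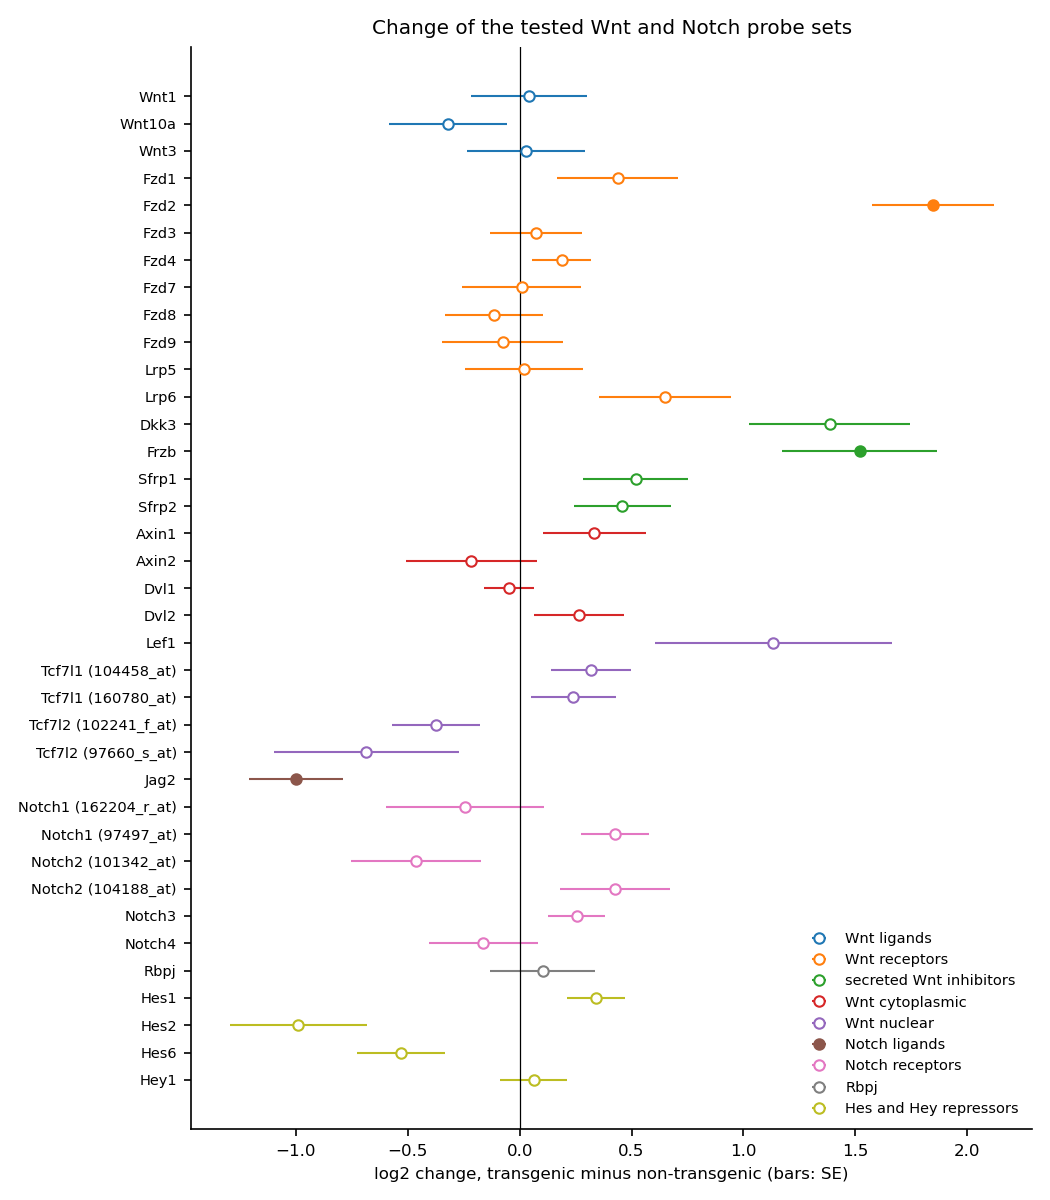
Log2 change with its standard error, transgenic minus non-transgenic, for the 37 tested member probe sets, coloured by role. Filled points passed the adjusted p threshold of 0.05, and open points did not. Fzd2 (1.85), Frzb (1.52) and Jag2 (-1.0) are the filled points, and the 4 secreted inhibitors all lie to the right of 0.

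Many fibroblast markers were also higher in transgenic ventricle. Of 18 tested fibroblast probe sets 10 rose and 0 fell, and the other 8 missed the threshold. Their median log2 change was 0.63. The signals of the 12 fibroblast genes, with 1 probe set per gene, summed to 13036 and 12544 on the transgenic arrays and to 7695 and 7536 on the non-transgenic arrays, and no fibroblast gene had only dim probe sets. Pdgfra and Ddr2 had no probe set past the threshold. They summed to 420.2 and 374.5 on the transgenic arrays, against 616.6 and 474.2 on the non-transgenic arrays. The brightest Pdgfra probe set had a log2 change of -0.51 and another tested one 0.75. Postn, a matrix protein of activated fibroblasts, read 519.0 and 448.7 in transgenic ventricle, against 111.0 and 110.4 in non-transgenic ventricle. In bulk tissue, more or fewer cells of a type and more or less RNA per cell cannot be told apart. Macrophage markers rose in 5 of 10 tested probe sets and fell in 0. Their sums were 3958 and 4073 on the transgenic arrays and 2412 and 2664 on the non-transgenic arrays, and Adgre1 and Itgam were dim. Of 3 tested probe sets for epicardium and mesothelium, those of Upk3b and Wt1 did not pass, and that of the keratin Krt18 rose. The sums of that list were 567 and 552 on the transgenic arrays and 284 and 297 on the non-transgenic arrays, with Aldh1a2, Krt19, Krt8 and Msln dim. Krt18 read 309.3 and 269.4 in transgenic ventricle, against 33.0 and 22.9 in non-transgenic ventricle. Without Krt18 the sums were 258 and 283 on the transgenic arrays and 251 and 275 on the non-transgenic arrays. The part of these cell types in the values of Fzd2, Frzb, Dkk3, Sfrp1 and Sfrp2 was not tested.

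The cytoplasmic components of the Wnt pathway among the members, those of the Dvl and Axin families, did not pass the test. Dvl1, a Dishevelled protein that relays the signal from Frizzled, read 528.6 and 612.6 in transgenic ventricle and 582.4 and 593.6 in non-transgenic ventricle. Its log2 change was -0.05 ± 0.11 (SE; adjusted p = 0.839 in limma) with a 95% interval of -0.31 to 0.22, the narrowest of the 4 tested probe sets in this group. Median centring of the arrays turned its sign, to 0.03. Dvl2 read 69.5 and 63.0 in transgenic ventricle and 57.3 and 50 in non-transgenic ventricle (log2 change 0.27, adjusted p = 0.467 in limma), and Dvl3 was dim. Axin1, the scaffold of the complex that marks beta-catenin for breakdown, read 214.4 and 263.7 in transgenic ventricle and 237.6 and 146.8 in non-transgenic ventricle. Axin2, a widely used target of Wnt signalling through beta-catenin, read 46.7 and 32.4 in transgenic ventricle and 59.1 and 36.7 in non-transgenic ventricle. The groups overlapped for Axin1 and for Axin2, and the log2 change of Axin2 was -0.22 ± 0.29 (SE; adjusted p = 0.703 in limma).

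Nuclear partners of beta-catenin did not pass either. Tcf7l1, known mostly as a repressor, had 2 tested probe sets with log2 changes of 0.32 and 0.24. Tcf7l2 had 2 with -0.37 and -0.68. One read 163.6 and 225.9 in transgenic ventricle and 220.5 and 287.6 in non-transgenic ventricle, with overlap (log2 change -0.37 ± 0.20 SE, adjusted p = 0.298 in limma). In the other, transgenic replicate 2 alone was low, at 37.3 beside 113.0 for transgenic replicate 1 and 121.5 and 102.8 in non-transgenic ventricle. Lef1 read 126.8 and 228.1 in transgenic ventricle and 139.3 and 36.1 in non-transgenic ventricle, so that each group spread widely (log2 change 1.13 ± 0.53 SE, adjusted p = 0.242 in limma). A second, dim Lef1 probe set was lower, at 9.9 and 7.7 in transgenic ventricle against 14.6 and 10.2 in non-transgenic ventricle. Lef1 is abundant in T lymphocytes, whose markers Cd3d, Cd3e, Cd3g, Cd8a, Cd8b1 and Il7r were all dim here. The other two measured genes of that list, Cd4 and Zap70, each had 1 tested probe set, and neither passed the test. Cd4 read 73.8 and 32.0 in transgenic ventricle and 72.4 and 50 in non-transgenic ventricle. The tested Zap70 probe set read 16.8 and 31.7 in transgenic ventricle and 51.1 and 46.8 in non-transgenic ventricle. The 8 measured T lymphocyte genes summed to 151 and 113 on the transgenic arrays and to 177 and 148 on the non-transgenic arrays.

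In the Notch pathway the ligand Jag2 fell. Its signal was 43.0 and 36.8 on the transgenic arrays, against 97.3 and 80.6 on the non-transgenic arrays. Each pair was close together and the groups were far apart. The means were 39.9 ± 4.38 in transgenic and 89.0 ± 11.8 in non-transgenic ventricle (SD, n = 2 each), with a log2 change of -1.0 ± 0.21 (SE) and an adjusted p of 0.0341 in limma. With any 1 of the 4 arrays left out the call ended in limma, at adjusted p values from 0.0552 to 0.111 and log2 changes from -1.12 to -0.88. It also ended without the filter (0.0941) and without a trend in the variance model (0.0657). Dll1, the other ligand, had 2 dim probe sets. One of them read 14.7 and 13.1 in transgenic ventricle and 76.3 and 18.1 in non-transgenic ventricle, with 1 non-transgenic array far above the rest.

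Notch receptors were read by 7 probe sets for 4 genes, and of 6 tested none passed. Notch1, the receptor best known in endothelium and in the stressed cardiomyocyte, read 197.0 and 188.5 in transgenic ventricle and 128.8 and 154.7 in non-transgenic ventricle. The groups did not overlap, and the log2 change was 0.43 ± 0.15 (SE; adjusted p = 0.146 in limma). A second Notch1 probe set overlapped between groups and had the opposite sign, at -0.25. Notch2 likewise had 1 probe set without overlap, at 42.1 and 38.9 in transgenic ventricle against 28.6 and 27 in non-transgenic ventricle (log2 change 0.43 ± 0.25 SE, adjusted p = 0.334 in limma). Its other probe set had a log2 change of -0.46 and overlapping groups. Notch3, the receptor of vascular smooth muscle and pericytes, read 281.1 and 316.9 in transgenic ventricle and 239.7 and 258.2 in non-transgenic ventricle (log2 change 0.25 ± 0.13 SE, 95% interval -0.05 to 0.56, adjusted p = 0.278 in limma). Notch4, known from endothelium, had a log2 change of -0.16 and overlapping groups. A second, dim Notch4 probe set read 12.8 and 3.1 in transgenic ventricle against 22.0 and 24.9 in non-transgenic ventricle, without overlap.

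Of 12 tested probe sets for endothelial markers, 1 was higher (Eng) and 1 lower (Tie1), and 10 did not pass. The sums were 3875 and 3875 on the transgenic arrays and 3664 and 3594 on the non-transgenic arrays. Without Eng and Tie1 they were 1875 and 1857 on the transgenic arrays and 1916 and 2044 on the non-transgenic arrays. The median log2 change of the endothelial list was -0.07. Among smooth muscle and pericyte markers 1 of 9 tested probe sets rose, that of Acta2, and 0 fell. Their sums were 3134 and 3127 on the transgenic arrays and 1889 and 1902 on the non-transgenic arrays, and Cnn1 was the gene of that list with only dim signal. The median log2 change of that list was -0.06. Acta2 read 1478.2 and 1539.0 in transgenic ventricle, against 396.7 and 430.6 in non-transgenic ventricle. Without Acta2 the sums were 1655 and 1588 on the transgenic arrays and 1492 and 1471 on the non-transgenic arrays. The part of vessel cells in the Notch values was not tested.

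Rbpj, the DNA-binding partner of Notch, read 99.4 and 66.4 in transgenic ventricle and 67.8 and 83.2 in non-transgenic ventricle. The spread within each group was wider than the gap between the means, with a log2 change of 0.10 ± 0.23 (SE; adjusted p = 0.827 in limma) and a 95% interval of -0.45 to 0.66. Repressors of the Hes and Hey families did not pass the test, and their changes had both signs. Hes1, the most general target of Notch, read 322.2 and 302.1 in transgenic ventricle and 261.2 and 229.0 in non-transgenic ventricle, a log2 change of 0.34 ± 0.13 (SE). Hes6, which is known to oppose Hes1, read 105.5 and 97.6 in transgenic ventricle and 126.2 and 178.9 in non-transgenic ventricle, a log2 change of -0.53 ± 0.20 (SE). Hes2 read 27.2 and 15 in transgenic ventricle and 42.8 and 57.0 in non-transgenic ventricle, a log2 change of -0.99 ± 0.31 (SE). The groups of these 3 did not overlap, which was part of the rule that picked them for full statistics. Of all tested probe sets, 27.8% lay wholly above and 28.1% wholly below. The adjusted p in limma was 0.167 for Hes1, 0.160 for Hes6 and 0.106 for Hes2. Hey1, a Notch target in vessels and in the developing chamber, read 130.4 and 141.4 in transgenic ventricle and 124.5 and 135.1 in non-transgenic ventricle, with a 95% interval of the log2 change from -0.29 to 0.42.

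**Figure D3:**
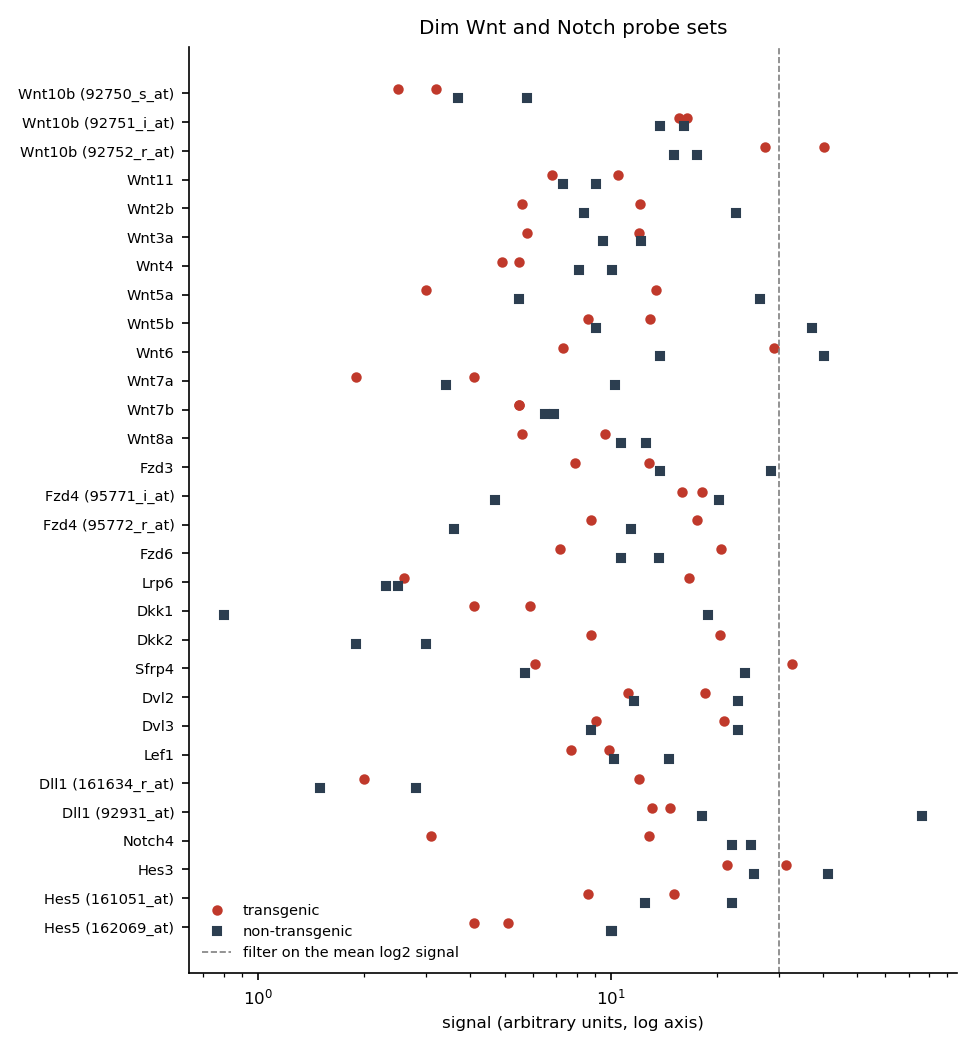
Signals (log axis, arbitrary units) of the 30 dim member probe sets, with transgenic arrays as circles and non-transgenic arrays as squares. The dashed line is the filter, at a signal of 30.0 on the scale of the mean log2 signal. Most points lie below it, and for many probe sets the replicates of 1 group lie severalfold apart.

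Signals of the dim members ran from 0.8 (Dkk1) to 76.3 (Dll1). The transgenic arrays lay wholly below the non-transgenic arrays in 9 of these 30 and wholly above in 3. Over all 4969 dim probe sets the shares were 30.4% below and 10.4% above. With the filter removed, 0 of the 30 passed the adjusted threshold in limma, beside 2.65% of all 12422 probe sets. At an unadjusted limma p under 0.05 there were 2 (Dkk2 and Notch4), beside 17.8% of all 12422 probe sets. Both of these shares cover bright and dim probe sets together, so they are no measure for dim ones alone. Of the 13 genes with more than 1 probe set, Fzd3, Fzd4, Lrp6, Dvl2, Lef1 and Notch4 each had 1 tested probe set. Their other probe sets were dim, so the tested values rest on a single reading. The 39 genes with only 1 probe set, Fzd2, Frzb, Dkk3 and Jag2 among them, also have no second reading.

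Other genes of the 2 pathways were taken from a list of 105 genes, of which 72 were measured. Of 71 tested probe sets 4 rose, 1 fell and 66 did not pass, which is 7.04% called, beside 7.93% of all tested probe sets. The median log2 change was 0.03. Those that rose were Dtx2, Kat2a, Ctnnb1 and Wls, and Tle5 fell.

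Ctnnb1 encodes beta-catenin, the effector of the Wnt pathway and a part of the cell junction. It read 1411.3 and 1307.2 in transgenic ventricle, against 916.4 and 964.9 in non-transgenic ventricle. Both pairs were tight, with a log2 change of 0.53 ± 0.09 (SE) and an adjusted p of 0.0175 in limma. The call ended without transgenic replicate 1 (adjusted p = 0.0768 in limma) or non-transgenic replicate 1 (0.0542), and without a trend in the variance model (0.121). Wls, the carrier that Wnt proteins need for secretion, read 231.7 and 231.3 in transgenic ventricle, against 136.3 and 161.5 in non-transgenic ventricle. Its adjusted p in limma was 0.0493, at the edge of the threshold, and the call ended with any 1 array left out (up to 0.168). It also ended with a pseudocount of 1 (0.0502), with quantile normalization (0.0547), without the filter (0.0858) and without a trend in the variance model (0.112). Tle5, a short relative of the Groucho corepressors, read 2382.1 and 2563.6 in transgenic ventricle, against 3690.8 and 3566.4 in non-transgenic ventricle. It fell by 0.55 ± 0.07 (SE) on the log2 scale, with an adjusted p of 0.00765 in limma, and did not pass without a trend in the variance model (0.111).

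Dtx2, a Deltex ubiquitin ligase that acts on Notch, read 318.9 and 306.9 in transgenic ventricle, against 114.3 and 92.6 in non-transgenic ventricle. The groups were far apart, with a 2.88-fold rise, a log2 change of 1.52 ± 0.15 (SE) and an adjusted p of 0.00286 in limma. It passed in all 13 alternative settings, with adjusted p values in limma up to 0.0274. Kat2a, a histone acetyltransferase recruited with the Notch complex, read 82.6 and 91.4 in transgenic ventricle, against 30.4 and 41.3 in non-transgenic ventricle. It rose 2.15-fold (adjusted p = 0.0297 in limma), a call that ended without transgenic replicate 1, transgenic replicate 2 or non-transgenic replicate 1 (adjusted p up to 0.131). It also ended without the filter (0.0860) and without a trend in the variance model (0.0657).

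**Figure D4:**
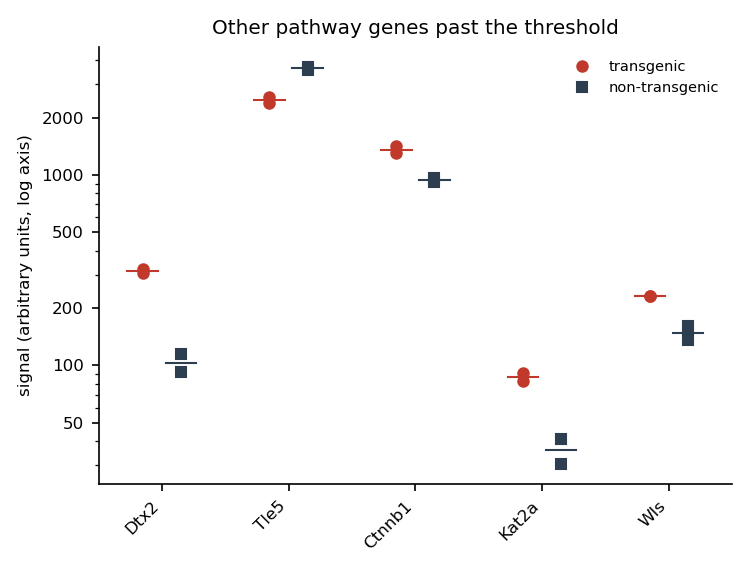
Signal on each array (log axis, arbitrary units) for the 5 other pathway genes past the threshold, with transgenic arrays as circles, non-transgenic arrays as squares and a line at each group mean. Dtx2, Ctnnb1, Kat2a and Wls are higher and Tle5 is lower on both transgenic arrays.

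Targets of the Wnt pathway outside the member families had 0 of 6 tested probe sets past limma with Benjamini-Hochberg adjustment, and 1 (Jun) at an unadjusted p below 0.05. Ccnd1, the cyclin D1 gene, had log2 changes of 0.19 and 0.04 in its 2 probe sets, and Ccn5 read 37.2 and 41.0 in transgenic ventricle against 22.9 and 33.1 in non-transgenic ventricle. Ccn4 and Myc were dim. Of the genes listed for Notch processing and cleavage, Adam10, Aph1a, Furin, Psen2 and Psenen were tested, and none passed. The log2 change was -0.35 for Psen2 (adjusted p = 0.217 in limma), -0.24 for Aph1a (0.447), -0.12 for Psenen, 0.08 for Furin, and 0.20 and 0.00 for the 2 probe sets of Adam10. Adam17 was dim, at 12.5 and 8.5 in transgenic ventricle and 29.5 and 33.4 in non-transgenic ventricle.

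**Figure D5:**
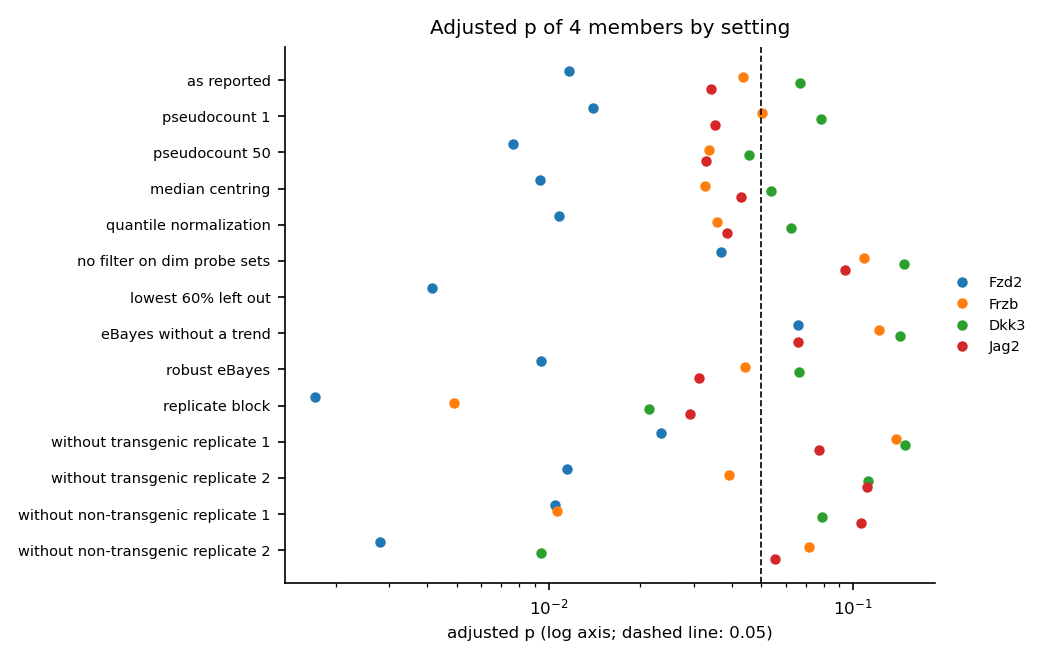
Adjusted p in limma (log axis) of Fzd2, Frzb, Dkk3 and Jag2 as reported and under the alternative settings, 13 for Fzd2 and 12 for the others, which were not tested with the lowest 60% left out. The dashed line is at 0.05. Fzd2 lies left of the line in all settings but the variance model without a trend (0.0657), while Frzb and Jag2 cross it when single arrays are left out.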

How the data were processed

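The authors deposited 1 linear signal intensity for each probe set on each array and did not state the software. That the scale is linear was read from the values, none of which is 0 or less and most of which are small. The mean after trimming 2% at each end was about 150.1 on every array, so the arrays had been scaled to 1 target, which hides any change common to most transcripts. Detection calls were not used, and the genome build is not given in the sources used here.

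Gene names came from the platform annotation and were checked by gene number against RefSeq (10839 matched, 0 changed). Of 12488 probe sets, 66 controls were left out. Values were transformed to log2(signal + 9), where 9 is the rounded 20th percentile of all values. All fold changes given here come from these values. The added 9 makes them too small, most of all at low signal. The lowest 40% by mean log2 signal over all 4 arrays were called dim and not tested. The groups were compared in limma 3.58.1 (R 4.3.3) by lmFit and eBayes with a variance trend, two-sided. Benjamini-Hochberg adjustment ran over all 7453 tested probe sets, with a threshold of 0.05. The prior had 5.05 degrees of freedom, beside 2 residual ones. Log2 changes carry moderated standard errors and 95% intervals, and signals carry standard deviations. The number of arrays limits the precision.

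The rule for the members reads gene names only, but the members and lists were chosen with earlier results of these data known. Full statistics were given for members past the threshold, for the 12 tested members with the largest change among those whose groups did not overlap, and for the brightest tested probe set of each role. Of the other pathway genes, up to 12 past the threshold were named. The alternatives were other pseudocounts (1 and 50), scalings, filters (none and 60%) and variance models, a replicate block, and leaving out each array.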

Additional observations from a re-analysis of the deposited data

How the results depend on the processing

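The number of members higher was 2 as reported. It was 1 with a pseudocount of 1, without the filter or with the lowest 60% left out, 0 with eBayes without a trend (5 with an unadjusted limma p below 0.05), and 1 to 3 with single arrays left out. The number lower was 1 as reported. It was 0 without the filter (4 unadjusted), with the lowest 60% left out (1 unadjusted, and Jag2 not tested) and with eBayes without a trend (3 unadjusted), and 0 to 1 with single arrays left out. The 1 that fell without transgenic replicate 1 was Tcf7l2, not Jag2. Of the other pathway genes 4 were higher as reported, 2 without the filter, 1 with eBayes without a trend and 1 to 3 with single arrays left out. In that list 1 was lower as reported, 0 with eBayes without a trend (8 unadjusted) and 1 to 2 with single arrays left out. Counts over all tested probe sets moved too. They were 303 higher and 288 lower as reported, 172 and 157 without the filter, 44 and 34 with eBayes without a trend, and 125 to 232 and 158 to 191 with single arrays left out. Median centring, quantile normalization, robust eBayes and a pseudocount of 50 kept these 4 counts within 1.5 times. With a pseudocount of 50 the members higher were 3, Dkk3 being added.

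The replicate numbers were taken as names only, so the reported fit had no block. Replicate 1 minus replicate 2 of the transgenic group correlated at -0.06 across probe sets with that of the non-transgenic group. With a replicate block 4 members were higher, Dkk3 and Lrp6 being added, and 1 was lower.

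Signs changed in 3 named members, none of them past the threshold. The log2 change of Wnt1 was -0.25 without non-transgenic replicate 1, and ran from -0.25 to 0.33 with single arrays left out. That of Dvl1 was 0.033 after median centring and ran from -0.15 to 0.058, and that of Rbpj ran from -0.16 to 0.37. Fzd2 kept its call in 12 of 13 settings, Frzb in 7 of 12 and Jag2 in 6 of 12. Having 2 arrays per group limits all of these calls.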
